A study of Mus musculus with 16 samples.

Results

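The inflammatory cytokine and NF-kB signalling genes measured here are 39 of the 24062 gene rows of a sperm RNA-seq count table, taken by name: 6 cytokines, 7 chemokines, 4 innate sensors and adaptors, 2 inflammasome genes, 7 kinases, factors and inhibitors of NF-kB, 7 receptor, JAK and STAT genes, and 6 interferon regulatory factors and interferon-stimulated genes. The libraries came from 8 male mice on a high-fat diet (HFD, a modified D12492 diet) and 8 males on the control diet matched to it (CD). All 16 males began their diet when 3 weeks old, and motile sperm was isolated after 9 weeks of feeding. No mutation, drug or strain is named in the labels used here, and the design text describes each diet as 8 mice, so each library was taken as 1 animal. The comparison addresses which sperm transcripts differ with the diet of the male.

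In this pathway, Toll-like receptors sense microbial products and, through the adaptor Myd88 and the ubiquitin ligase Traf6, activate the kinases encoded by Ikbkb and Chuk. These kinases mark the inhibitor encoded by Nfkbia for destruction, which frees NF-kB dimers, built from the products of Rela, Nfkb1 and Nfkb2, to enter the nucleus and switch on cytokines and chemokines. Secreted cytokines and interferons act on neighbouring cells through JAK kinases and STAT factors, and the duct epithelium and resident macrophages of the epididymis are known users of these sensors.

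Gene counts per library ran from 1882555 to 5153818 in HFD and from 3172721 to 7783981 in CD. Levels are CPM, read counts put on a common library total, with edgeR's trimmed mean of M-values (TMM) factors for genes that passed its expression filter and by the gene total otherwise. A count of 0 allows up to 0.582 to 1.59 CPM in HFD and 0.385 to 0.946 CPM in CD, taking 3 counts as the upper limit and covering counting error only. The label spermatozoa was checked against 23 late spermatid and sperm markers, which summed to 3079 to 55478 CPM in HFD and 2388 to 13195 CPM in CD. A list of 18 genes of the epididymal epithelium, the duct lining, summed to more in 14 of the libraries, with 10285 to 75402 CPM in HFD and 34865 to 83640 CPM in CD. HFD 4 and HFD 8 stood apart, with 23353 and 55478 CPM of sperm markers against at most 13195 CPM elsewhere. Fold changes are given with and without them where they were the 2 lowest or 2 highest libraries for a listed gene past the filter. Fewer cells of a type and less RNA per cell cannot be told apart in such bulk libraries.

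Promoter windows of 6 of these genes are shown because the genes stand at different ends of the measurements below. Each is the RefSeq window (GRCm38.p6) from 250 bases before to 50 after an annotated start, read 5′ to 3′ on the gene's strand, with matches to the searched motifs in capitals. Cxcl2 (chr5:90903649-90903948, plus strand) and Cxcl10 (chr5:92348840-92349139, minus strand) are chemokine genes with an NF-kB consensus, and the window of Cxcl10 holds an interferon-stimulated response element core as well. Nfkbia (chr12:55492598-55492897, minus strand) has an NF-kB consensus beginning at -29. Isg15 (chr4:156200769-156201068, minus strand) has overlapping response element cores beginning at -78, -72 and -66, and Myd88 (chr9:119339969-119340268, minus strand) a core at -40 that overlaps a STAT palindrome at -46. Ccl3 (chr11:83649329-83649628, minus strand) holds none of the 3 motifs in this window.
Cxcl2: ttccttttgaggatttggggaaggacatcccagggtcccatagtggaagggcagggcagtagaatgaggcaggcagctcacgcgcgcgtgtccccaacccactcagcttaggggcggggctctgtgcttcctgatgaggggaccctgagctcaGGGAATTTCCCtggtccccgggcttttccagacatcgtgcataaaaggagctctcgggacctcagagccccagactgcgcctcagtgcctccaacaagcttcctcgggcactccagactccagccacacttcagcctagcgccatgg
Cxcl10: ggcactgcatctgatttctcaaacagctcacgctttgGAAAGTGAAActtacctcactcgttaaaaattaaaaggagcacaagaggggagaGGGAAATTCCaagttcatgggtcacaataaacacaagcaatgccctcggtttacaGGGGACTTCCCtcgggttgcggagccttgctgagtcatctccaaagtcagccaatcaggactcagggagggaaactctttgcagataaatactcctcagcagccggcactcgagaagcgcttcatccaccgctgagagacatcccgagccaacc
Nfkbia: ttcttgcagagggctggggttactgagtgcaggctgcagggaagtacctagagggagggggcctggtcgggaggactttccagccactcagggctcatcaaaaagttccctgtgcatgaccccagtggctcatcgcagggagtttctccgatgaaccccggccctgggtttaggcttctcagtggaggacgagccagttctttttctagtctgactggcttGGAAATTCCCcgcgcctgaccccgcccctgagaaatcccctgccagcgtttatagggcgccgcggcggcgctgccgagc
Isg15: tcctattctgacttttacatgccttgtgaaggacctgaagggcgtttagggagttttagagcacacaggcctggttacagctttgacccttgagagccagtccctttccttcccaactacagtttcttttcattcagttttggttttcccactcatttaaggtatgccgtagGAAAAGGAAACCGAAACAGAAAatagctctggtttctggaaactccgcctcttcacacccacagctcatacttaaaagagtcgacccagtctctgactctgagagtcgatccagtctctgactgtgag
Myd88: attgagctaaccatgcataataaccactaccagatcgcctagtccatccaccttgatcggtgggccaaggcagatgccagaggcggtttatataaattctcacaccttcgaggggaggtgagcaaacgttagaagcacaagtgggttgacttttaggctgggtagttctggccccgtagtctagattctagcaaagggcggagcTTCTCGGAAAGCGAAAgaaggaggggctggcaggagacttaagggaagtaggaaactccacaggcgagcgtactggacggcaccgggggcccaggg
Ccl3: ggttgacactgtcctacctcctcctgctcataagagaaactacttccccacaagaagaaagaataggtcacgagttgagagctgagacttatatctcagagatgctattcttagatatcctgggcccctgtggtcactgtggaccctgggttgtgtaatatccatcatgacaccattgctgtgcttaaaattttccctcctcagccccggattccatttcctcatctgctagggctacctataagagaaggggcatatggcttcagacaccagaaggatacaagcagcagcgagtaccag

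An NF-kB consensus stood in 12 of the 37 windows found for 32 of the 39 genes, or 32.4%, against 8.46% of 32851 windows of all genes. The interferon-stimulated response element core, GAAANNGAAA, stood in 6 of the 37 windows (16.2%, against 3.44% of all windows), and the STAT palindrome, TTCNNNGAA, in 5 (13.5%, against 8.30%). Both strands were searched, overlapping matches were kept, and the NF-kB search used its published consensus. Among genes too low to pass the expression filter, 6 of 14 windows held the NF-kB consensus, in Cxcl1, Cxcl2, Cxcl10, Il6, Tlr2 and Nlrp3, and among genes that passed, 6 of 23 windows did, in Irf1, Nfkb2, Nfkbia and Tnfaip3. Some genes have several windows, so windows of 1 gene are not independent. A match describes letters in the window and is not a measured binding site.

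The intracellular relay of the pathway was detected in these preparations far more fully than the secreted signals. Of the 39 genes, 23 passed the expression filter: 7 of 7 NF-kB genes, 7 of 7 receptor, JAK and STAT genes, 5 of 6 interferon genes, 3 of 4 sensors and adaptors, 1 of 7 chemokines, 0 of 2 inflammasome genes and 0 of 6 cytokines. Per kilobase of exon, the highest mean levels over the 16 libraries were those of the cytokine receptor kinases Jak2 (27.3 CPM per kb ± 7.32, SD) and Jak1 (20.6 ± 3.35) and of Rela (18.2 ± 5.35), the transactivating subunit of NF-kB. Next came Myd88 (10.9 CPM per kb ± 6.62), the chemokine Ccl5 (10.2 ± 14.3) and the NF-kB inhibitor Nfkbia (9.09 ± 3.67), which differ by less than the spread of any of the 3. The lowest levels were 0.0395 CPM per kb for Il10, an anti-inflammatory cytokine, and 0.127 CPM per kb for Il6. All 39 symbols matched 1 gene each of GENCODE M21 on GRCm38, and exons of 11 overlap those of another gene, in 9 cases one that the count table also holds.

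**Figure D1:**
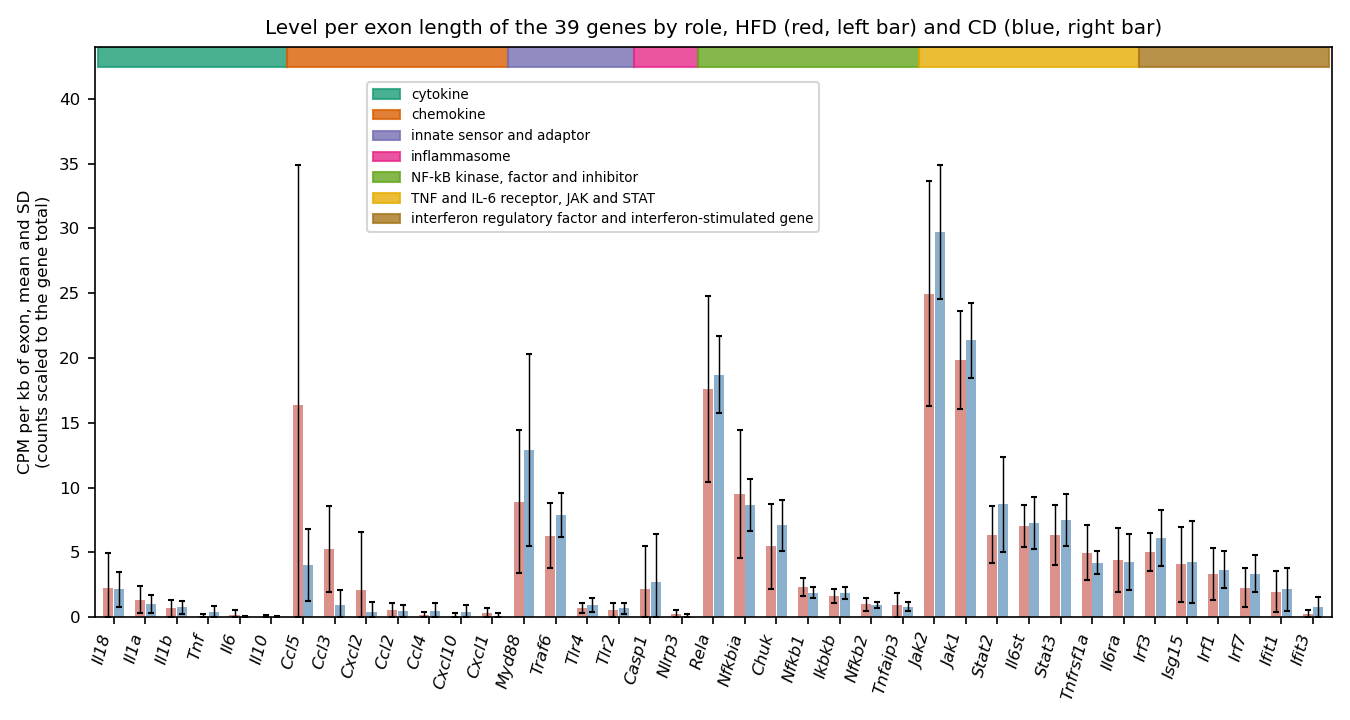
Mean level of each of the 39 genes per kilobase of exon (CPM per kb, counts scaled to the gene total), ordered by role and by level within a role, with HFD as the left and CD as the right bar and whiskers of 1 SD over 8 libraries per diet, cut at 0. Jak2, Jak1 and Rela have the tallest bars in CD, and the cytokines at the left stay near 0 except Il18, Il1a and Il1b.

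None of the 23 genes that could be tested passed the threshold for diet. With edgeR's quasi-likelihood test, 0 of the 23 tested genes had an adjusted p under 0.05, where 0 of 13149 genes over the whole table did (percent called 0). At an unadjusted p under 0.05 the count was 1, Ccl5, which was higher in HFD, against 11.3% of all tested genes (10.2% higher and 1.1% lower in HFD). DESeq2 and limma-voom with quality weights also put 0 of the 23 past the threshold. The log2 fold change of HFD over CD was positive for 7 genes and negative for 16, with a median of -0.13, against -0.0042 for all tested genes. Without HFD 4 and HFD 8 the signs divided 11 to 12 and the median was -0.04, with 0 of the 23 at an unadjusted p under 0.05, against 2.17% of all genes tested then.

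**Figure D2:**
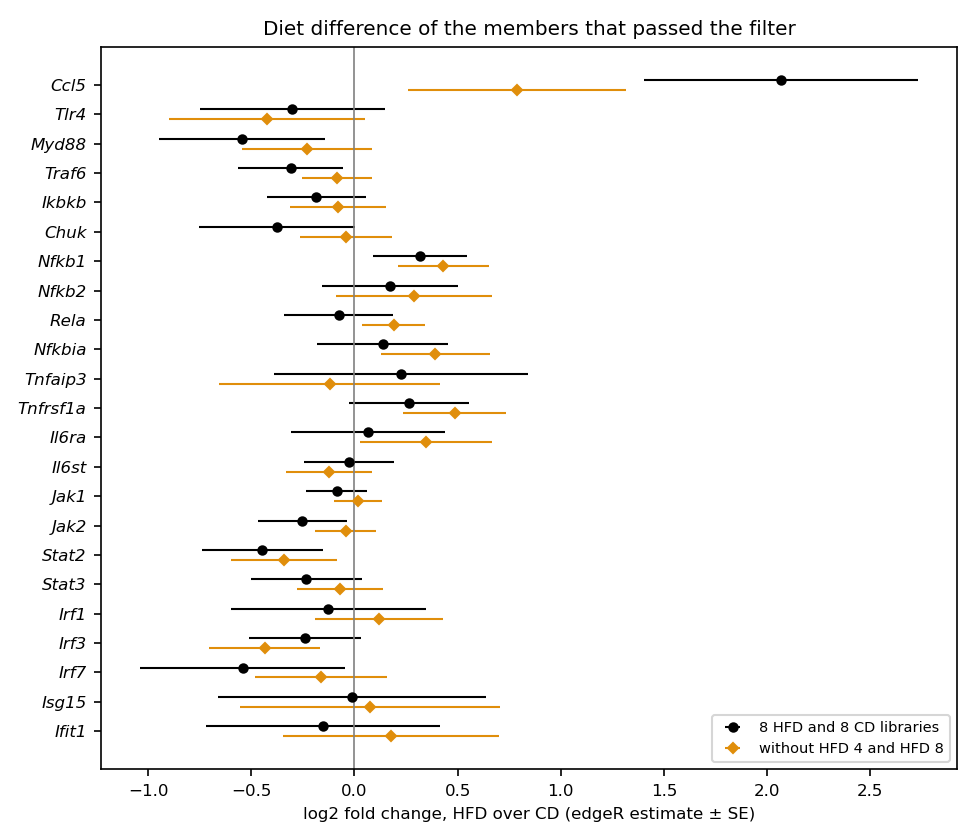
Log2 fold change of HFD over CD with its standard error (edgeR) for the 23 genes that passed the filter, from all 16 libraries (black circles) and without HFD 4 and HFD 8 (orange diamonds). Ccl5 lies farthest right at 2.07, and its value without these libraries is 0.79, while the remaining genes lie between -0.55 and 0.48 in either fit.

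Ccl5, which draws T cells and monocytes (chromosome 11, 83525778 to 83530518, minus strand, with no exon shared with another gene), had the largest difference among the tested genes. Its lowest, median and highest levels were 2.27, 7.41 and 53.7 CPM in HFD, against 1.66, 3.05 and 9.27 CPM in CD. HFD 8 (53.7 CPM), HFD 4 (39.3) and HFD 5 (18.2) lay above all CD libraries, and the other 5 HFD libraries lay within the CD range. The means were 16.8 CPM ± 19.4 in HFD and 3.92 ± 2.65 in CD (mean ± SD, n = 8 libraries each), and the log2 fold change was 2.07 ± 0.66 (SE, edgeR adjusted p = 0.434). Without HFD 4 and HFD 8 the HFD mean was 6.84 CPM ± 6.08 (SD, n = 6) and the log2 fold change 0.79 ± 0.53 (SE, edgeR adjusted p = 0.9997). Lymphocyte markers were also highest in HFD 4 and HFD 8. The 10 genes of the lymphocyte list summed to 11.3 to 213 CPM in HFD and 7.71 to 68.3 CPM in CD. Their sum was 148 CPM in HFD 4, 213 CPM in HFD 8 and at most 68.3 CPM elsewhere. It was 53.7 CPM in HFD 5, below the 68.3 CPM of CD 5, where Ccl5 stood at 1.79 CPM. Of that list the T cell gene Cd3e stood at 1.59 and 6.54 CPM in HFD 4 and HFD 8, the B cell gene Ms4a1 at 40.9 and 38.6 CPM, and Cd8a at 0 counts in both. The neighbouring gene Heatr9 was also highest in these libraries, with 61.6 and 16.7 CPM in HFD 4 and HFD 8, against 0.565 to 14.8 CPM in the other 14. The part of these genes in the Ccl5 values was not tested.

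Ccl3, another monocyte attractant (chromosome 11, 83647844 to 83649355), did not pass the filter, yet it was counted in every HFD library. HFD 1 to HFD 8 held 4, 2, 7, 11, 19, 25, 11 and 16 reads, 95 in all, while CD 1 to CD 8 held 8, 5, 0, 1, 0, 1, 1 and 6 reads, 22 in all. HFD 1 and HFD 2 lay within the CD range, at 0.840 and 0.388 CPM, and the other 6 HFD libraries, at 2.45 to 6.98 CPM, lay above the highest CD level of 2.32 CPM. In the edgeR fit with no filter, over 20408 genes, Ccl3 had a log2 fold change of 2.49 ± 0.80 (SE) and an adjusted p of 0.357, a fit in which 12.3% of genes had an unadjusted p under 0.05 and 0 passed. Without HFD 4 and HFD 8 the value was 2.29 ± 0.83 (edgeR adjusted p = 0.9999), so this contrast did not rest on those libraries, and it did not pass either way.

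The other 5 chemokines had few reads. Cxcl2, a neutrophil attractant, totalled 106 reads in HFD, 77 of them in HFD 7, and 22 in CD, 15 of them in CD 8. Leaving out the highest library of each diet, its mean was 1.09 CPM in HFD and 0.209 CPM in CD. The neutrophil attractant Cxcl1 totalled 17 reads in HFD and 6 in CD, the monocyte attractant Ccl2 19 and 16, and Ccl4 3 and 8. Cxcl10, an interferon-induced attractant of T cells whose exons overlap those of Art3 by 133 bases on the other strand, totalled 8 reads in 3 HFD libraries and 34 in 6 CD libraries. Counting error and spread are large against such totals, and none of the 5 had an edgeR adjusted p under 0.419 in the fit with no filter.

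No cytokine gene was abundant in either diet. Il18, an epithelial cytokine of the IL-1 family, had the highest level per length of the 6, at 2.27 CPM per kb ± 2.68 in HFD and 2.16 ± 1.35 in CD (mean ± SD, n = 8 libraries each), and its 26 reads in HFD 8 were the most in any library. Il1a had 0 to 19 reads per library in HFD and 0 to 16 in CD, and Il1b 0 to 14 and 1 to 11. Tnf, the ligand that gives the pathway its best known input, totalled 4 reads in HFD, no library with more than 1, and 21 reads in CD, with 8 in CD 1. Its no-filter log2 fold change was -1.94 ± 0.95 (SE) with an edgeR adjusted p of 0.416, and the ranges overlapped, since CD 3 and CD 5 held 0 reads. Il6 totalled 12 reads in HFD, 6 each in HFD 5 and HFD 6, and 4 in CD, and Il10 2 reads in HFD and 1 in CD. In HFD 4 only Tnf, with 1 read, was counted among these 6 genes.

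The inflammasome pair was uneven between libraries. Casp1, the protease that matures Il1b and Il18, totalled 89 reads in HFD, 45 of them in HFD 8, and 120 reads in CD, 63 of them in CD 6. Without these top libraries its mean was 1.69 CPM in HFD and 2.19 CPM in CD, so 1 library in each diet held about as much as all others of that diet together. Nlrp3, the sensor that recruits it, totalled 28 reads in HFD and 15 in CD, with 14 of the HFD reads in HFD 6.

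**Figure D3:**
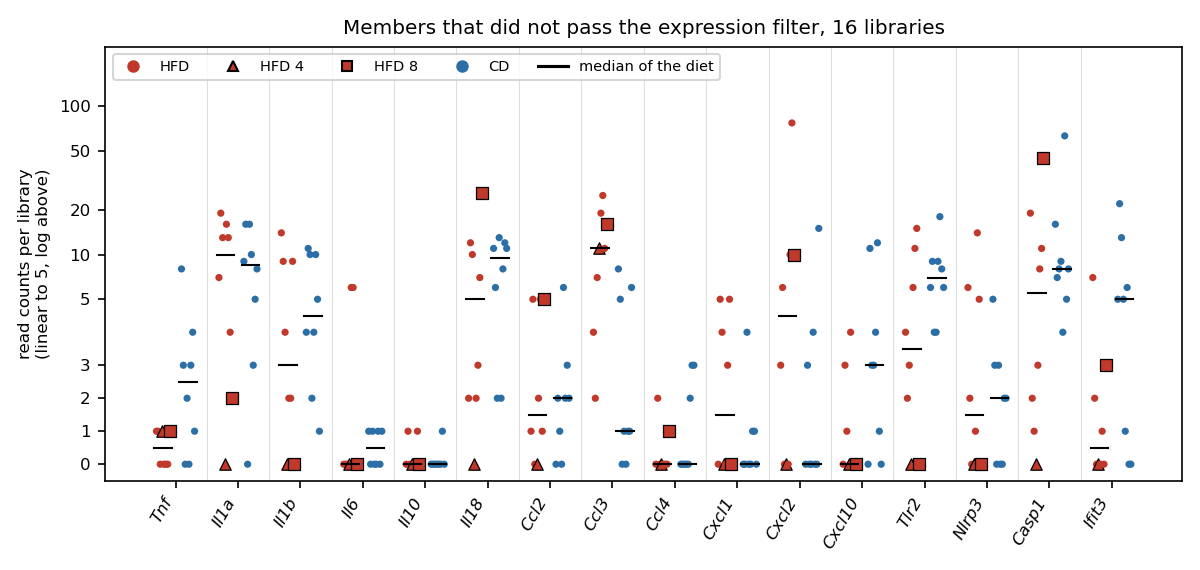
Reads per library of the 16 genes that did not pass the expression filter (linear scale up to 5 reads, logarithmic above), with HFD left of CD for each gene, HFD 4 as triangles, HFD 8 as squares and bars at the median of each diet. The Ccl3 median is 11 reads in HFD and 1 read in CD, and single libraries stand out for Cxcl2 (77 reads in HFD 7) and Casp1 (45 in HFD 8, 63 in CD 6).

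Among sensors and adaptors, 0 of the 3 tested genes passed, and all 3 fold changes were negative. Myd88 (chromosome 9, 119335934 to 119341411, minus strand) had a lowest, median and highest level of 4.76, 22.4 and 43.4 CPM in HFD, against 19.8, 24.1 and 78.7 CPM in CD. HFD 4 and HFD 8 were the lowest of the 16 libraries, at 4.76 and 8.37 CPM, CD 2 was the highest, and the medians of the diets lay close together. Its log2 fold change was -0.55 ± 0.40 (SE, edgeR adjusted p = 0.647), and -0.23 ± 0.31 without HFD 4 and HFD 8. Traf6 ran from 15.0 to 73.8 CPM in HFD around a median of 51.5, and from 46.7 to 85.3 CPM in CD around 60.4, with a log2 fold change of -0.31 ± 0.25 (edgeR adjusted p = 0.689), and -0.08 ± 0.17 without these libraries. Tlr4, the lipopolysaccharide receptor, averaged 4.24 CPM ± 2.33 in HFD and 5.26 ± 3.08 in CD (mean ± SD, n = 8 libraries each), with overlapping ranges. Tlr2, the receptor of bacterial lipoproteins, was below the filter, with 41 reads in HFD, none in HFD 4 or HFD 8, and 64 in CD.

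Of the 7 NF-kB genes, 0 passed for diet. Rela ran from 14.9 to 81.7 CPM in HFD with a median of 60.4, against 46.2 to 74.7 CPM in CD with a median of 56.8. Only HFD 4 (14.9 CPM) and HFD 8 (29.3 CPM) lay below the CD range. The log2 fold change of Rela was -0.08 ± 0.26 (SE, edgeR adjusted p = 0.930), and 0.19 ± 0.15 without these libraries. Chuk, an IKK kinase subunit, followed the same outline, with 2.98 CPM in HFD 4 and 9.76 in HFD 8 against 18.0 to 49.5 CPM in the other 14 libraries. Its log2 fold change was -0.38 ± 0.38, and -0.04 ± 0.22 without them. Nfkbia had 5.36, 15.8 and 29.4 CPM as lowest, median and highest levels in HFD, and 9.27, 14.2 and 19.5 CPM in CD. The log2 fold change of Nfkbia was 0.14 ± 0.32, and 0.39 ± 0.26 without HFD 4 and HFD 8.

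Nfkb1, which encodes the precursor of an NF-kB subunit, had the smallest unadjusted p of this role, with 17.9, 26.2 and 42.4 CPM as lowest, median and highest in HFD and 12.7, 24.8 and 29.4 CPM in CD. HFD 3, HFD 5 and HFD 7 exceeded every CD library, and the log2 fold change was 0.32 ± 0.23 (SE, edgeR adjusted p = 0.635). Without HFD 4 and HFD 8 it was 0.43 ± 0.22 (edgeR adjusted p = 0.9997). Ikbkb, the other catalytic IKK subunit, averaged 31.9 CPM ± 10.7 in HFD and 36.4 ± 9.95 in CD, and Nfkb2 4.69 ± 2.33 and 4.16 ± 0.944 (mean ± SD, n = 8 libraries each). Tnfaip3, a ubiquitin-editing enzyme that turns the pathway off, averaged 6.87 CPM ± 7.11 in HFD and 5.87 ± 2.29 in CD. Its maximum, 22.0 CPM, was in HFD 8, while HFD 4 held 0.595 CPM and HFD 3 held 0 counts. Its log2 fold change of 0.23 turned to -0.12 without HFD 4 and HFD 8.

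Of the 7 receptor, JAK and STAT genes, 0 passed for diet. Jak1, which serves interferon and IL-6 receptors, had lowest, median and highest levels of 115, 142 and 182 CPM in HFD and 122, 153 and 179 CPM in CD. Its spread was the smallest of the 23 tested genes, with a coefficient of variation of 15.9% in HFD and 11.1% in CD. Its log2 fold change was -0.09 ± 0.15 (SE, edgeR adjusted p = 0.850), and 0.016 ± 0.12 without HFD 4 and HFD 8. Jak2 had 61.4, 141 and 164 CPM in HFD and 96.0, 156 and 182 CPM in CD, with HFD 4 (78.0 CPM) and HFD 8 (61.4 CPM) alone below the CD range. For Jak2 the log2 fold change was -0.25 ± 0.22, and -0.04 ± 0.15 without them. Stat2, the interferon-specific STAT, had 13.9, 43.3 and 49.9 CPM in HFD and 25.7, 46.9 and 98.7 CPM in CD. Its log2 fold change of -0.45 ± 0.29 had the smallest p of the role (edgeR adjusted p = 0.599), with only HFD 8 outside the CD range.

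Stat3, the factor downstream of IL-6, averaged 61.2 CPM ± 22.4 in HFD and 72.0 ± 21.6 in CD (mean ± SD, n = 8 libraries each), and only HFD 4 (19.04 CPM) and HFD 3 (40.7 CPM) lay below the lowest CD level of 41.6 CPM. The shared IL-6 receptor subunit Il6st averaged 80.2 CPM ± 22.1 in HFD and 81.7 ± 26.9 in CD. The ligand-binding subunit Il6ra averaged 38.4 ± 21.5 and 36.7 ± 19.3, and the TNF receptor Tnfrsf1a 13.0 ± 5.37 and 10.9 ± 2.30. Ranges of these 4 genes overlapped between the diets. The log2 fold change of Il6ra was 0.07 ± 0.37 (SE), and 0.35 ± 0.32 without HFD 4 and HFD 8. That of Stat3 was -0.23 ± 0.27, and -0.07 ± 0.21 without these libraries. Tnfrsf1a had a log2 fold change of 0.26 ± 0.29 (SE), and 0.48 ± 0.25 without HFD 4 and HFD 8, where its edgeR adjusted p was 0.9997.

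Of the 5 tested interferon regulatory factors and interferon-stimulated genes, 0 passed the threshold. All 5 fold changes were negative over the 16 libraries, but without HFD 4 and HFD 8 those of Irf1, Isg15 and Ifit1 were 0.12, 0.074 and 0.18, and Isg15 stood at 0.0077 with RLE factors. Irf3, which acts downstream of nucleic acid sensors, had 9.24, 18.2 and 25.1 CPM as lowest, median and highest in HFD and 10.2, 21.8 and 34.1 CPM in CD, with overlapping ranges. Irf7, which amplifies the interferon response, had the smallest p of the role, with 0.595, 8.90 and 15.2 CPM in HFD and 6.27, 11.7 and 25.0 CPM in CD. HFD 4 and HFD 8 held 0.595 and 0.697 CPM, and the other 6 HFD libraries lay within the CD range. The log2 fold change of Irf7 was -0.54 ± 0.50 (SE, edgeR adjusted p = 0.724), and -0.16 ± 0.32 without these libraries. The ubiquitin-like Isg15 averaged 3.16 CPM ± 2.31 in HFD and 3.22 ± 2.46 in CD. Irf1 averaged 13.4 ± 8.44 and 14.6 ± 5.69, with 31.0 CPM in HFD 5 and 0 counts in HFD 4, and the RNA-binding Ifit1 5.15 ± 4.09 and 5.72 ± 4.59. Ifit3, its partner below the filter, totalled 13 reads in 4 HFD libraries and 52 reads in 6 CD libraries, with a no-filter log2 fold change of -1.74 ± 0.98 (edgeR adjusted p = 0.477).

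**Figure D4:**
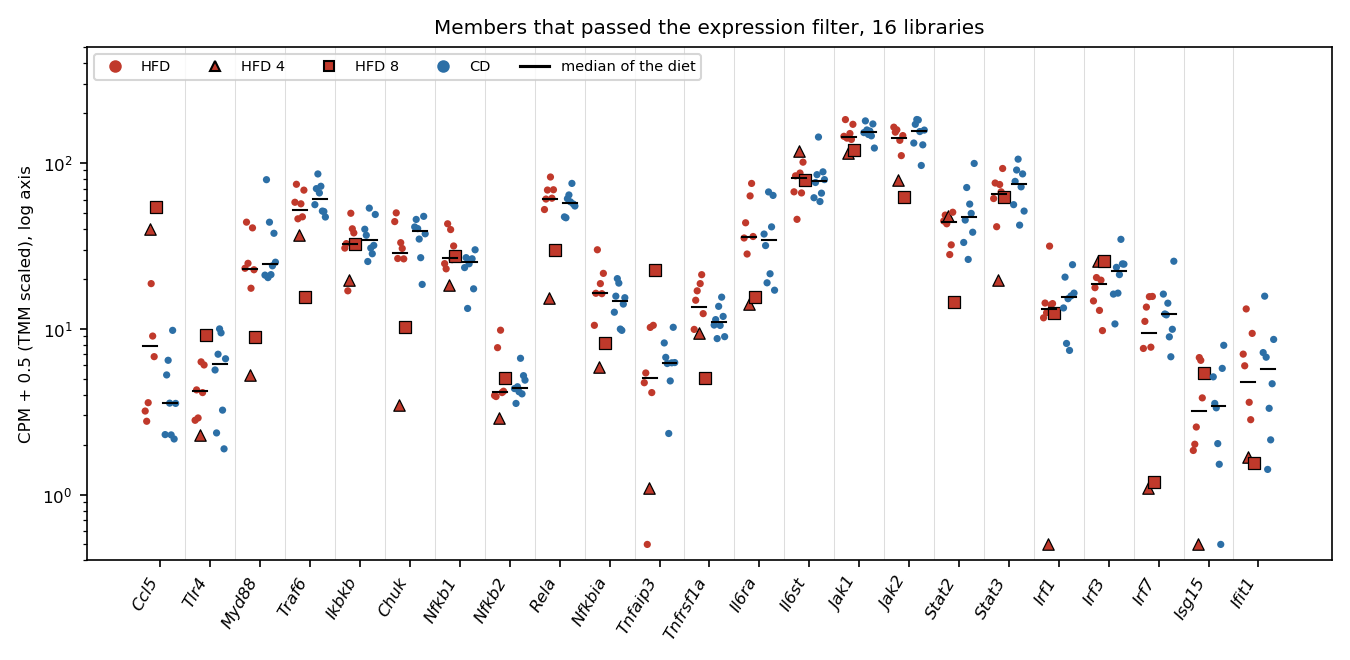
Level of the 23 genes that passed the filter in each of the 16 libraries (CPM plus 0.5, TMM scaled, logarithmic axis), with HFD left of CD for each gene, HFD 4 as triangles, HFD 8 as squares and bars at the median of each diet. HFD 4 and HFD 8 are at the bottom for Chuk, Rela, Il6ra and Irf7 and at the top for Ccl5.

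The libraries that stand apart in sperm transcripts were often the extreme ones here, as they were over all tested genes. HFD 4 and HFD 8 were the 2 lowest of the 16 libraries for 9 of the 23 tested genes, namely Myd88, Traf6, Chuk, Rela, Nfkbia, Il6ra, Jak1, Jak2 and Irf7, where this held for 22.7% of all tested genes. They were the 2 highest for 1 gene, Ccl5, where this held for 21.8% of all tested genes. The sperm markers were highest in both libraries, at 23353 and 55478 CPM against at most 13195 CPM elsewhere. The epididymal list was lowest in both, at 13884 and 10285 CPM against 34865 CPM or more elsewhere.

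Among the other 14 libraries, Myd88 and Stat3 were lower where sperm transcripts were more abundant. With diet in the model, 2 of the 23 tested genes changed with the log2 sum of the late spermatid and sperm list, both falling, where 12.1% of all genes changed and 3.51% fell. Myd88 fell by 0.56 ± 0.14 log2 units (SE) per log2 unit of the list, with an edgeR adjusted p of 0.0122, and Stat3 fell by 0.35 ± 0.11 with an edgeR adjusted p of 0.0325. CD 2, with the lowest list sum of 2388 CPM, had the highest Myd88 level, 78.7 CPM. Over these 14 libraries Myd88 ran from 17.0 to 78.7 CPM with a median of 23.9, and Stat3 from 40.7 to 105 CPM with a median of 72.4.

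**Figure D5:**
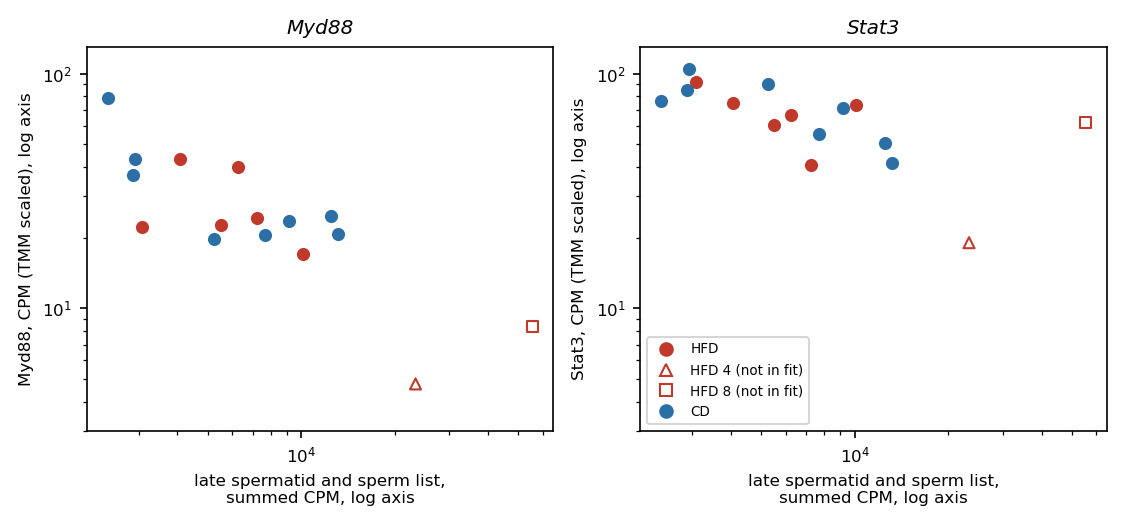
Level of Myd88 (left) and Stat3 (right) in CPM against the summed CPM of 23 late spermatid and sperm markers, both axes logarithmic, with HFD in red, CD in blue and the libraries HFD 4 and HFD 8, which the fit did not include, as open symbols. Myd88 is highest, at 78.7 CPM, in the library with the lowest sum, 2388 CPM, and Stat3 at 62.1 CPM in HFD 8 lies within the range of the 14 fitted libraries.

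Single libraries decided these calls. Without CD 2 the Myd88 slope was -0.36 ± 0.16 (SE) with an edgeR adjusted p of 0.197. The Stat3 slope was -0.35 without HFD 2 (edgeR adjusted p = 0.0531), -0.31 without CD 4 (0.0889), -0.28 without CD 5 (0.141), -0.36 without CD 7 (0.0532) and -0.34 without CD 8 (0.0668). Both genes overlap another gene on the opposite strand, Myd88 sharing 290 exonic bases with Acaa1a and Stat3 72 with Stat5a, and the strand setting of the counting is not given in the sources used here. Acaa1a had 32.9 CPM in CD 2 and its maximum, 46.7 CPM, in CD 6, scaled to the gene total. Stat5a had its maximum, 51.4 CPM, in CD 4, the library in which Stat3 was also highest. The part of the overlapping genes in these slopes was not tested.

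Against the epididymal list, 0 of the 23 tested genes passed in the 14 libraries, where 7.2% of all genes passed. Myd88 had a slope of 1.12 ± 0.37 (SE, edgeR adjusted p = 0.0720) and Chuk of 0.85 ± 0.29 (edgeR adjusted p = 0.0788). Limma-voom put 4 of the 23 past the threshold for this list: Chuk, Ifit1, Irf3 and Myd88. The share of all genes passing by limma-voom was not computed, so its counts for the lists cannot be set against the other genes. Leukocyte and macrophage markers gave 0 of 23 as well, where 0.0521% of all genes passed. Myd88 had a slope of -1.27 ± 0.29 (edgeR adjusted p = 0.0836), and limma-voom called Myd88 alone of the 23. The 19 measured genes of this list summed to 1565 to 5559 CPM in HFD and 2060 to 4754 CPM in CD. Of this sum 27.5% to 87.3% came from Cd52, and none of the genes was at 0 in a whole diet. Slopes on the whole list therefore lean on Cd52 and cannot be read as slopes on leukocyte RNA. Without Cd52, which was left out only once its share was known, 1 of 23 passed, Myd88, with a slope of -0.67 ± 0.18 and an edgeR adjusted p of 0.0418, where 4.13% of all genes passed. With HFD 4 and HFD 8 in the fits, 12 of the 23 passed for the epididymal list, 7 for the sperm list and 1, Ccl5, for the leukocyte list, where 52.9%, 43.2% and 10.1% of all genes passed. With Cd52 in the leukocyte list, Ccl5 was lower where the list was higher, with a slope of -1.77 ± 0.51 (SE, edgeR adjusted p = 0.0390). Without Cd52 the slope was 1.002 ± 0.49 (edgeR adjusted p = 0.210), so its sign turned on Cd52. Cd52 stood at 550 and 586 CPM in HFD 4 and HFD 8, against 1789 to 4605 CPM elsewhere, and so was low where the epididymal list was low. The rest of the list summed to 1015 and 1547 CPM there, against 271 to 1147 CPM elsewhere.

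The other genes of these pathways did not pass for diet either. Of 144 further pathway genes, 97 were tested and 0 passed, with 7 at an unadjusted p under 0.05, against 11.3% of all tested genes. DESeq2 and limma-voom also put 0 of these pathway genes past the threshold. With edgeR there were 39 positive and 58 negative fold changes and a median of -0.11. Without HFD 4 and HFD 8 the signs divided 48 to 50 over 98 tested genes, the median was -0.02, and 2 had an unadjusted p under 0.05, against 2.17% of all genes tested then. Cxcl14, a chemokine of epithelia, had the smallest p of these, with 0.370, 2.43 and 8.12 CPM as lowest, median and highest in HFD and 3.27, 10.3 and 19.97 CPM in CD. Its log2 fold change was -1.80 ± 0.55 (SE, edgeR adjusted p = 0.434), and -1.77 ± 0.58 without HFD 4 and HFD 8. Il16, a cytokine of lymphocytes, averaged 11.0 CPM ± 7.19 in HFD and 4.88 ± 2.18 in CD (mean ± SD, n = 8 libraries each), and its log2 fold change was 1.15 ± 0.43 (SE, edgeR adjusted p = 0.434), and 0.68 ± 0.41 without these libraries. Stat4, the IL-12 responsive STAT, averaged 221 CPM ± 270.04 in HFD and 70.9 ± 39.8 in CD, with 644 CPM in HFD 4 and 668 CPM in HFD 8. Its log2 fold change of 1.64 ± 0.61 (SE, edgeR adjusted p = 0.434) stood at 0.10 ± 0.38 without them.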

How the data were processed

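For 16 sperm libraries the authors deposited 1 table of unnormalised whole-number read counts by gene symbol. The submitters' processing notes name the build mm10 and the tools STAR, DESeq2 1.0.19 and HTSeq 1.0.0, without saying what each did. Per the labels' protocols, 2 ng of RNA was amplified, and no molecular identifier is named, so intervals and limits cover counting error only. Summary rows stayed out of totals and tests: reads in no feature made up 58.0% to 76.1% of a column, reads not aligned uniquely 15.8% to 30.7% and ambiguous reads 0.0474% to 0.0907%. The 56 pairs of libraries of 1 diet differed by 12.7 to 172 in chi-square per degree of freedom.

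Diets were compared with edgeR 4.0.16 (R 4.3.3), using its robust quasi-likelihood test, TMM factors, its default filter by diet and Benjamini-Hochberg adjustment over 13149 genes, threshold 0.05. Tests were two-sided. Slopes on the log2 summed CPM of marker lists were fitted with diet in the model over 13448 genes in the 14 libraries other than HFD 4 and HFD 8. DESeq2 1.42.0 and limma 3.58.1 served as alternatives. The fits were also run on counts simulated around a shared mean profile, with effects added to some genes. Those counts lack most of the differences in RNA source between these libraries, so they do not show how the fits behave under them. Members, lists and tests were chosen with earlier results of these data known. Genes described in full are those that passed a test, the 3 with the highest level per exon length in each role and the smallest diet p of each role. Per-length levels used GENCODE M21 exons, and promoter windows came from RefSeq for GRCm38.p6.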

Additional observations from a re-analysis of the deposited data

Results flagged for a closer look

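In groups of 8 libraries, the gap of the highest or lowest value to its neighbour was compared with the group's range by Dixon's criterion. Of 78 such groups, 14 had a single library standing apart, in 11 of the 39 genes, where chance flags about 1 in 20 groups of normally distributed values. These levels cannot fall below 0 and many rest on few reads, so that rate does not carry over to them. All 14 were high values, in CPM.

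Among the chemokines and cytokines, Cxcl2 stood at 27.2 in HFD 7 and 4.73 in CD 8, Cxcl10 at 1.47 in HFD 5 and 3.33 in CD 6, Cxcl1 at 1.11 in CD 3, Il18 at 8.50 in HFD 8 and Il10 at 0.280 in CD 7, which is 1 read. Casp1 stood at 14.7 in HFD 8, where the next HFD library had 3.99, and at 17.5 in CD 6, where the next CD library had 4.64. In the same CD 6, Tlr2 stood at 5.001, with 2.43 next.

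Among genes that passed the expression filter, Tnfaip3 stood at 22.0 in HFD 8, Irf1 at 31.0 in HFD 5, Myd88 at 78.7 in CD 2 and Il6st at 143 in CD 4. The next values in those diets were 9.98, 13.8, 43.4 and 87.8.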

How the results depend on the processing

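Over 30 alternatives, 689 fold changes of the 23 tested genes gave 0 past the threshold, 644 in the direction reported and 45 in the other, each for a gene whose fold change was smaller than its standard error. DESeq2 called 1 gene over the whole table, no member. Isg15 did not pass the filter with Rn45s left out. In log2 units, Il6st turned to 0.0089 with DESeq2, 0.011 with RLE factors and 0.021 with the sperm list as covariate, and Isg15 to 0.0038 with DESeq2, 0.0077 with RLE factors and 0.0039 with at least 1 CPM in 8 libraries. With limma-voom, Rela turned to 0.087, Tnfaip3 to -0.62 and Ifit1 to 0.15. Ifit1 turned to 0.21 with the log2 gene total as covariate, and with the sperm list Ifit1 turned to 0.022, Irf1 to 0.028 and Tnfaip3 to -0.042. Without HFD 4 and HFD 8, Rela turned to 0.19, Tnfaip3 to -0.12, Jak1 to 0.016, Irf1 to 0.12, Isg15 to 0.074 and Ifit1 to 0.18, and with no filter, Il1b to 0.27, Il18 to -0.39 and Tlr2 to 0.023, an alternative added once values were known. The cause was not tested.

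Leaving out single libraries gave -0.45 to 0.25 for Ifit1, -0.14 to 0.26 for Il6ra, -0.11 to 0.17 for Il6st, -0.42 to 0.073 for Irf1, -0.22 to 0.30 for Isg15, -0.040 to 0.29 for Nfkb2, -0.048 to 0.27 for Nfkbia, -0.18 to 0.075 for Rela and -0.31 to 0.44 for Tnfaip3. Ccl5 kept a positive value, from 1.504 without HFD 8 to 2.37 without CD 6, and 0.53 with limma-voom.

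Counts of genes passing a marker list moved with the libraries used, as did the shares over all genes. With all 16 libraries they were 12 for the epididymal, 7 for the sperm and 1 for the leukocyte list. Over all genes 52.9%, 43.2% and 10.1% passed in these fits. Limma-voom gave 4 and 1 for the epididymal and leukocyte lists, against 0 and 0, with no share over all genes computed. The leukocyte list without Cd52 gave 1, where 4.13% of all genes passed. Leaving out single libraries gave 0 to 1 for the epididymal list and 1 to 3 for the sperm list. The shares over all genes in those fits were not computed, so these counts cannot be set against the other genes.

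Title numbers were not taken to pair the libraries. Same-numbered libraries correlated at -0.40 to 0.61 in their deviations from the diet means, 4 of 8 above 0.1 and 2 of 8 best with their own number. With 8 pairs that differ in RNA source, these values cannot decide whether the numbers mark a pairing. With the title number as a replicate block the sperm list count was 0 instead of 2, with no share over all genes computed. In the diet fit with that block Tnfaip3 turned to -0.34, and 0 of 23 passed. Counts of 0 in genes with few reads do not show absence.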
